A study of Citrus sinensis with 10 samples.

Results

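The fruit of Anliu, an orange-fleshed sweet orange (Citrus sinensis), was followed through 5 collections at 120, 150, 170, 190 and 220 days after flowering. The values are the wild-type channels of a 2-colour array series, which make up 10 of its 20 channels and were picked by genotype and dye alone, as the file headers name them. On each array wild-type RNA was hybridised together with RNA of Hong Anliu, a red-fleshed bud mutant of Anliu, that is, a line that began as a changed shoot and is kept by grafting. At each day 1 array carried the wild type in Cy3 and a dye-swapped array carried it in Cy5, both from the same extract, so there were 5 wild-type extracts and 10 measurements. Neither genotype received a treatment according to the labels. The labels do not say which part of the fruit was taken, from how many trees, or whether fruit was pooled. The clones on the array carry no gene names, so neither the tissue nor any pathway could be checked against marker genes. They also give no sequence that could be shown here.

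In these months a sweet orange passes from growth to ripeness. Its juice sacs enlarge and fill, citric acid declines, sugars accumulate, and chlorophyll gives way to carotenoids in peel and flesh. Citrus ripens without the burst of ethylene that drives ripening in a tomato or a banana, so its changes are spread over weeks. The flesh of Hong Anliu is red from lycopene, a carotenoid that Anliu does not build up, and Anliu is the baseline of normal development against which the mutant is read.

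Each array held 19152 spots, of which 17568 were spots of 5856 cDNA clones from 61 plates, with 3 spots per clone, and 1584 were controls. The median wild-type intensity over clone spots lay between 2188 and 4556 per channel. Clones were kept where the wild type exceeded the 95th percentile of blank and solvent spots on at least 5 arrays, which left 5845, and the 5844 with a value at every day were analysed. Of these, 4882 were above that limit on all 10 arrays. The limit was 4.65 to 8 on the Cy5 arrays, 36 to 215 on the other Cy3 arrays and 822 on the Cy3 array of 220 days. The dimmest clones are therefore least certain at 220 days. On each Cy5 array 5844 to 5850 clones passed, so the rule of 5 arrays removed few clones. Levels are log2 intensities after quantile normalization, which gives every channel the same distribution, so a level says where a clone stands relative to the other clones of that day. Precision is limited by how few arrays there are. Fewer cells of a kind and less RNA per cell cannot be told apart in such extracts.

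Day 150 was measured less well than the others. The SD between the dye orientations was 0.44 at 150 days and 0.31, 0.30, 0.23 and 0.33 at 120, 170, 190 and 220 days. After each clone's mean over the days was taken off, the orientations correlated across clones at r = 0.42 at 150 days and at 0.73 to 0.78 on the other days. Plate 21, with 96 clones, was the plate that stood apart: on the Cy5 array of 150 days its median wild-type level lay at -1.06 relative to the other plates, and at 0.15 on the Cy3 array. The other 60 plates differed between these arrays by -0.25 to 0.36. The mutant channel of the same array gave -0.96 for plate 21. Without that plate the SD at 150 days was 0.42 and the correlation 0.45.

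The collection at 170 days stood apart in another way. Relative to each clone's mean within its genotype, the wild-type levels at 170 days ran against the mutant levels of the same arrays (r = -0.49 across clones) and along with the mutant levels of 190 days (r = 0.64). The control spots Y5 and Y6 separated the genotypes in the same direction on all 10 arrays: Y6 minus Y5 was higher in the wild type by 5.08 to 6.92 (log2), and by 5.81 and 6.37 on the arrays of 170 days. Signal on control spots cannot show an exchange made before the control RNA was added. Whether fruit or RNA of the genotypes was exchanged at 170 days was not tested. The trend test, the counts over all days and the days of the extremes are therefore given with and without it.

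The first question was which clones moved steadily in one direction as the wild-type fruit developed. No clone passed the test of a trend. The slope of the level on days was fitted in limma to the 5 day means, with 3 residual degrees of freedom, and 0 of 5844 clones (0% called) passed at a Benjamini-Hochberg adjusted p of 0.05. Before adjustment 831 clones had p below 0.05, 359 with a positive slope (6.14% called) and 472 with a negative slope (8.08% called). This balance was not stable: there were 494 and 265 without 220 days, and 3 and 1295 with levels relative to the control spots. Among clones above background on all arrays there were 336 and 339. That filter mostly drops clones dim on the Cy3 array of 220 days, so it cannot test the balance. Plates 30 to 61 supplied 255 of the 359 and 365 of the 472, with 3062 clones tested. Plates 1 to 29 supplied 104 and 107, with 2782 clones tested. That boundary between plates was taken from earlier results of these data. Without 170 days 203 clones passed, 120 rising with a median slope of 2.51 per 100 days and 83 falling with a median slope of -2.63, and plates 30 to 61 held 108 and 68 of them. The 120 clones lay 1.32 (median, log2) above their own line at 170 days and the 83 falling clones 0.35 above it. Without 220 days 2 clones passed, both rising, and without any other single day 0 passed.

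Several clones came closest to the threshold, with the same adjusted p in limma, 0.0753. One of them, 10.G.11, named after its values were seen, had levels of 9.03, 11.53, 12.64, 12.35 and 12.75 at 120, 150, 170, 190 and 220 days on the Cy3 arrays. On the Cy5 arrays it stood at 9.23, 9.88, 12.17, 12.19 and 12.81. It was thus lowest at 120 days and highest at 220 days in both orientations, which differed most at 150 days, and its slope was 3.69 per 100 days (SE 0.67). Clone 41.E.11, also named after its values were seen, went from 12.49 in Cy3 and 12.84 in Cy5 at 120 days to 8.74 and 9.62 at 220 days. Its slope was -3.36 (SE 0.48), and the levels of the 3 days between lay between these ends.

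A stricter description asks for clones whose level was ordered in time at each of the steps and in both dye orientations. Of the 5844 clones, 27 were ordered downward and 4 upward, and of these 19 and 3 were above background on all 10 arrays. The count had no test. The downward clones with the largest differences stood in 3 cases about 3 log2 units lower at 220 than at 120 days. Without 170 days 203 clones were ordered downward and 136 upward.

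Clone 42.G.2 had the largest difference among the ordered clones. With the wild type in Cy3 its level was 13.64 at 120 days, 12.40 at 150, 12.34 at 170, 11.76 at 190 and 10.43 at 220 days. With the wild type in Cy5 it was 13.54, 12.32, 12.32, 11.96 and 10.56 at the same days. The steepest parts lay before 150 and after 190 days, with a plateau between 150 and 170 days. Its slope was -2.84 per 100 days (SE 0.49, adjusted p = 0.0753 in limma).

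Clones 48.E.12 and 40.G.3 went through the same sequence of a drop, a plateau and a second drop. The mean level of 48.E.12 was 13.53, 12.47, 12.40, 11.60 and 10.58 from the first to the last day, and the orientations lay within 0.36 of each other at 190 days, where they were farthest apart. The mean level of 40.G.3 was 13.45, 12.49, 12.42, 11.73 and 10.67. Neither passed the test (adjusted p = 0.0753 in limma for both), and both passed it without 170 days (adjusted p = 0.0289), as did 42.G.2. The files do not tell whether these 3 clones carry the same transcript.

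The other named downward clones had smaller differences and more even paths. Clone 33.E.10 stood at 12.54, 11.58, 11.37, 10.63 and 10.41 in Cy3 and at 12.68, 12.42, 11.47, 10.30 and 10.03 in Cy5. Clone 18.C.6 went on average from 13.25 to 12.61, 12.40, 11.70 and 11.24. Both orientations of each clone kept this order, and on the mean of the orientations the step from 170 to 190 days was the largest in each. Clones 28.D.12 and 27.D.8, on neighbouring plates, stood at means of 13.20 and 13.14 at 120 days and of 11.62 and 11.63 at 220 days, and each had its largest step between 170 and 190 days. Clones 36.G.11, 57.H.11 and 42.G.10 differed by -1.48, -1.47 and -1.43. In 36.G.11 the last step was the largest, as its level was 11.34, 11.20, 11.08, 10.70 and 9.86. On the Cy3 array of 220 days its intensity was 869, near the background limit of 822. The adjusted p of these 7 clones in limma ran from 0.0753 to 0.191.

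Upward order was rare, and 3 clones above background on all arrays showed it. Clone 59.H.8 stood at 10.39, 10.96, 11.67, 11.78 and 11.97 in Cy3 and at 10.25, 11.43, 11.56, 11.70 and 11.84 in Cy5. Most of its difference was reached by 170 days. Clone 38.A.8 stood at 9.49, 9.71, 10.28, 10.45 and 11.11 in Cy3 and at 9.81, 9.83, 9.93, 10.07 and 10.67 in Cy5, so its largest step came after 190 days. Clone 39.G.1 had mean levels of 11.21, 11.63, 11.88, 12.21 and 12.39, and its first step was the largest. Their slopes were 1.55 (SE 0.48), 1.24 (SE 0.45) and 1.22 (SE 0.44) per 100 days, with adjusted p of 0.180, 0.232 and 0.231 in limma. Scaled to the control spots, the slopes of 38.A.8 and 39.G.1 turned to -0.0969 and -0.0371, and that of 59.H.8 was 0.29 (adjusted p = 0.808 in limma).

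**Figure D1:**
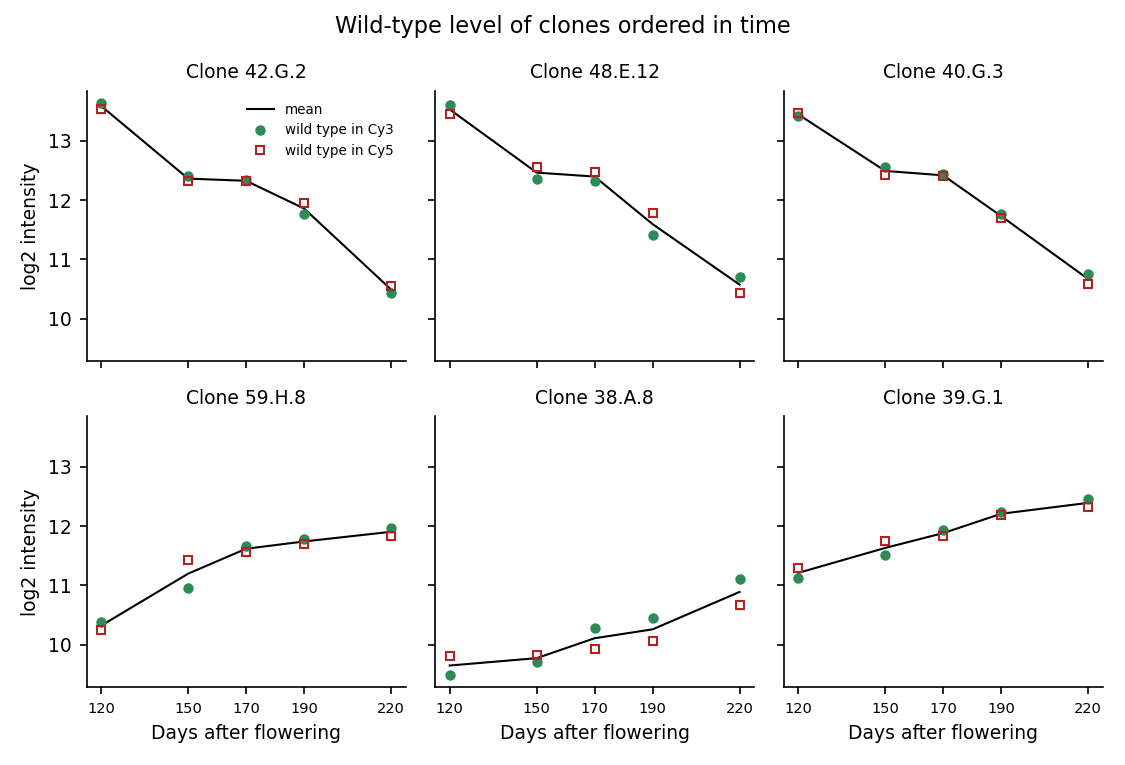
Wild-type log2 intensity (vertical axis) of 6 clones ordered in time against days after flowering (horizontal axis). Filled points are the arrays with the wild type in Cy3, open squares those with it in Cy5, and the line joins their mean. Clones 42.G.2, 48.E.12 and 40.G.3 end about 3 log2 units lower, with a plateau between 150 and 170 days, and 59.H.8, 38.A.8 and 39.G.1 end between 1.18 and 1.58 higher (scaled to the control spots, the slopes of the last 2 turn below 0 and that of 59.H.8 is 0.29).

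The second question was how far the wild-type fruit of one day differed from that of another. A clone was counted where it differed at least 2-fold in the same direction in both dye orientations, Cy3 against Cy3 and Cy5 against Cy5. With 1 extract per day these counts describe the extracts and have no test. Over all 10 pairs of days, 2318 clones (39.7%) differed 2-fold between some pair and 3526 never did. Without 170 days it was 1717 clones (29.4%). The share was 35.9% in plates 1 to 29 and 43.1% in plates 30 to 61. The median range of a clone over the days was 1.02 (log2), and the 5th and 95th percentiles were 0.42 and 2.45.

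By these 2-fold counts 120 and 220 days were farthest apart, and 150 and 190 days lay closest together. The latter rank was narrow in other settings. On the mean of both orientations 565 clones were 2-fold apart between 150 and 190 days and 597 between 120 and 150 days. At 4-fold it was 16 between 150 and 190 days, 17 between 190 and 220 and 19 between 170 and 190 days. The part of the large spread between orientations at 150 days in this rank was not tested. Between 120 and 150 days 203 clones were higher (3.47% called) and 131 lower (2.24%) at the later day. Between 120 and 170 days 673 were higher (11.5%) and 245 lower (4.19%). Between 120 and 190 days 497 were higher (8.5%) and 276 lower (4.72%). All of these pairs had more clones higher at the later day. With 1 orientation alone, 120 to 150 days gave 514 higher and 303 lower in Cy3, but 376 and 386 in Cy5. Between 120 and 220 days 470 were higher (8.04%) and 548 lower (9.38%), the largest total of any pair, 1018.

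Among the later days the lower side was the larger wherever 220 days was the later day, though not at every limit. Between 150 and 170 days 307 were higher (5.25%) and 148 lower (2.53%), and between 150 and 190 days 129 were higher (2.21%) and 105 lower (1.8%). Between 170 and 190 days 234 were higher (4%) and 234 lower (4%). Those 3 pairs had no excess of lower clones when both orientations were required. With 1 orientation alone, 150 to 190 days gave 366 higher and 389 lower in Cy3, and 410 and 286 in Cy5. For 170 to 190 days it was 432 and 377 in Cy3, and 357 and 384 in Cy5. Between 150 and 220 days 277 were higher (4.74%) and 367 lower (6.28%), between 170 and 220 days 408 (6.98%) and 507 (8.68%), and between 190 and 220 days 239 (4.09%) and 379 (6.49%). At 4-fold 87 clones were higher and 20 lower between 150 and 220 days. The clones that went opposite ways in the dye orientations numbered 2 to 18 per pair. The SD over clones of the difference between days was 0.63 to 0.96, against 0.23 to 0.38 for the difference between the orientations divided by 2.

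The balance of higher and lower clones rests on the scaling of the arrays. With channels scaled to 1 median instead, 267 clones were higher and 214 lower between 150 and 170 days, a share of 55.5% higher against 67.5%. Between 150 and 190 days it was 106 higher and 133 lower, 44.4% against 55.1%. Between 170 and 220 days the larger side turned, with 506 higher and 431 lower. Among the 4882 clones above background on all arrays, 450 were higher and 393 lower between 120 and 220 days. Between 150 and 220 days it was 267 each. The Cy3 array of 220 days decides most of this set, as 4891 clones passed there and at least 5819 on every other array. The filter thus drops clones that are dim at 220 days, so these counts cannot show whether the balance is stable. Levels set against the control spots Y1 to Y4 moved the median clone by 0.76 at 120 days, -0.44 at 150, 0.49 at 170, 0.10 at 190 and -0.90 at 220 days. Relative to those controls the clones as a whole were highest at 120 days and lowest at 220 days. Against 120 days 11 clones were then higher and 2895 lower at 150 days, 441 and 704 at 170 days, 133 and 1378 at 190 days, and 14 and 4095 at 220 days. Against 150 days it was 1298 and 39 at 170 days, 611 and 31 at 190 days, and 163 and 859 at 220 days. Against 170 days it was 98 and 591 at 190 days and 18 and 3006 at 220 days, and against 190 days 7 and 2047 at 220 days. No label states whether equal amounts of these controls went into every labelling. The clone levels below are therefore relative to the typical clone of each day.

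**Figure D2:**
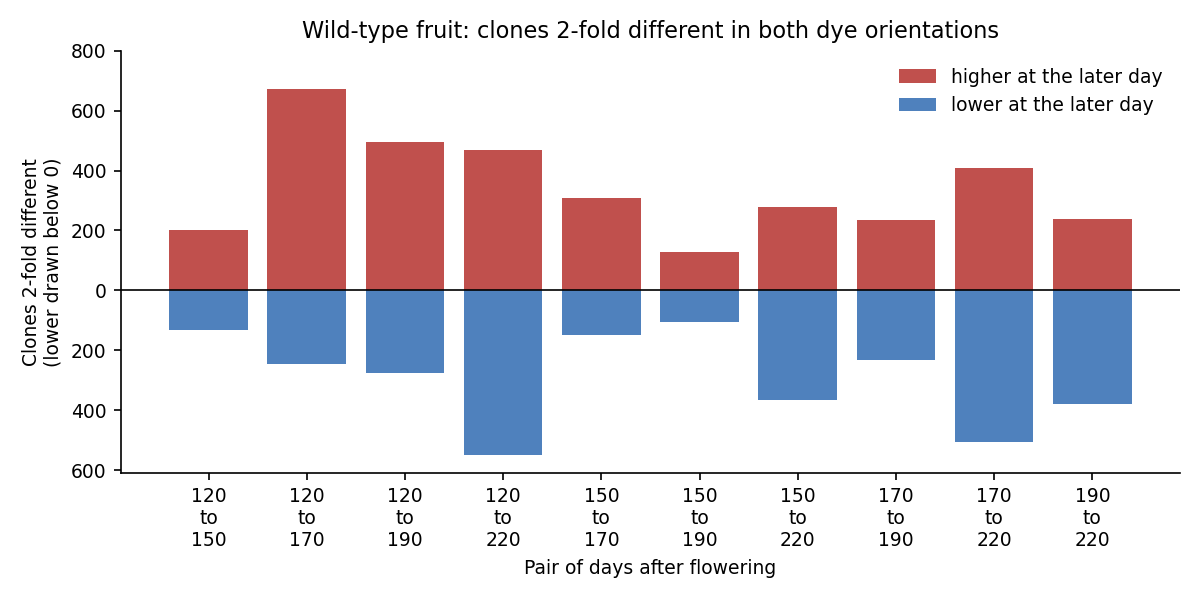
Number of clones (vertical axis) that differed at least 2-fold between 2 days in both dye orientations, for the 10 pairs of days (horizontal axis). Bars above 0 count clones higher at the later day and bars below 0 clones lower. The bars are tallest for 120 against 220 days, with 470 higher and 548 lower, and shortest for 150 against 190 days, with 129 and 105.

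From 120 to 150 days the largest differences were upward. Clone 10.A.7 stood at 9.92 in Cy3 and 9.17 in Cy5 at 120 days and at 12.66 and 12.60 at 150 days, a difference of 3.08 ± 0.48 (SD, n = 2 orientations). It stayed high after that, with means of 13.27, 12.93 and 12.18. Clone 28.C.9 stood at 10.21 and 10.40 at 120 days and at 12.95 and 13.37 at 150 days, and its mean then stayed between 12.80 and 12.99. In both clones the level of 120 days was the exception, and the other 4 days lay together. Clone 43.A.6 was the largest in the other direction, at 12.34 and 12.44 at 120 days against 10.08 and 10.34 at 150 days. Clone 60.A.3 stood at 11.96 and 11.94 against 9.85 and 9.85. Both climbed back only in part, to means of 11.34 and 10.55 at 220 days.

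The step from 150 to 170 days ended for several clones in a level that was far from both earlier days. Clone 51.B.3 stood at 10.59 in Cy3 and 10.32 in Cy5 at 150 days and at 13.23 and 13.24 at 170 days, a difference of 2.78 ± 0.21 (SD, n = 2). At 190 days it was at 11.79 on average and at 220 days at 12.92. Clone 61.A.10 stood at 9.54 and 9.01 at 150 days, at 12.21 and 12.08 at 170 days, and at a mean of 9.83 by 220 days. On the Cy3 array of 220 days the intensity of 61.A.10 was 699, under the background limit of 822, so its level on that day is uncertain. The higher level of 51.B.3 was still present at 220 days. Clone 12.C.7 went the other way, from 13.88 and 13.63 to 10.56 and 10.27, a difference of -3.34 ± 0.03. It then stayed near that level, at 10.66 and 11.17. Clone 41.H.8 had the largest difference of all, -4.24 ± 0.55, but it was dim: its intensity in Cy3 was 72.7 at 170 days, against 1053 at 150 days, and it was lower still in Cy5.

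From 170 to 190 days the clones with the largest step up returned toward their level of 150 days. Clone 46.G.10 stood at 12.11 in Cy3 and 12.13 in Cy5 at 150 days, at 9.39 and 9.51 at 170 days and at 12.53 and 12.47 at 190 days. Clone 35.C.1 stood at 12.15 and 12.41, then at 9.89 and 9.78, then at 12.74 and 12.66. The step up was 3.05 ± 0.13 in 46.G.10 and 2.87 ± 0.01 in 35.C.1 (SD, n = 2). Both dips are a single collection, that of 170 days, and without it both clones lay between 10.76 and 12.70 on average. In the other direction clone 12.D.10 stood at 11.93 and 12.12 at 170 days and at 9.33 and 9.11 at 190 days. Clone 20.H.6 stood at 14.79 and 14.84 against 12.80 and 12.69. Of these, 12.D.10 had its lowest level at 190 days by a wide gap, and 20.H.6 its highest at 170 days.

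Between 190 and 220 days single clones differed by more than 4-fold in either direction. Clone 51.A.1 stood at 12.38 in Cy3 and 12.78 in Cy5 at 190 days and at 9.88 and 10.39 at 220 days, a difference of -2.45 ± 0.08 (SD, n = 2). Clone 53.F.11 stood at 12.42 and 12.44 against 10.15 and 10.29. The earlier levels of both clones had all lain above the last one. On the Cy3 array of 220 days the intensity was 997 in 51.A.1 and 902 in 53.F.11, near the limit of 822. Clone 40.A.2 was higher at 220 days, at 10.20 and 10.45 against 8.05 and 7.90, with intensities of 971 and 972 against 266 and 222. Its 971 in Cy3 was near the limit of 822 as well. Clone 41.H.8 stood higher at 220 days as well, at 10.09 in Cy3 and 7.51 in Cy5 against 4.62 and 4.78, and its orientations lay far apart at 220 days. In Cy3 its intensity was 908 at 220 days, near the limit of 822, and 38.7 at 190 days, near the limit of 36. In Cy5 it was 130 and 26.3, against limits of 4.65 and 5. Scaled to the control spots, the step of 40.A.2 was 1.64 in place of 2.35 and that of 10.A.7 from 120 to 150 days 1.79 in place of 3.08.

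**Figure D3:**
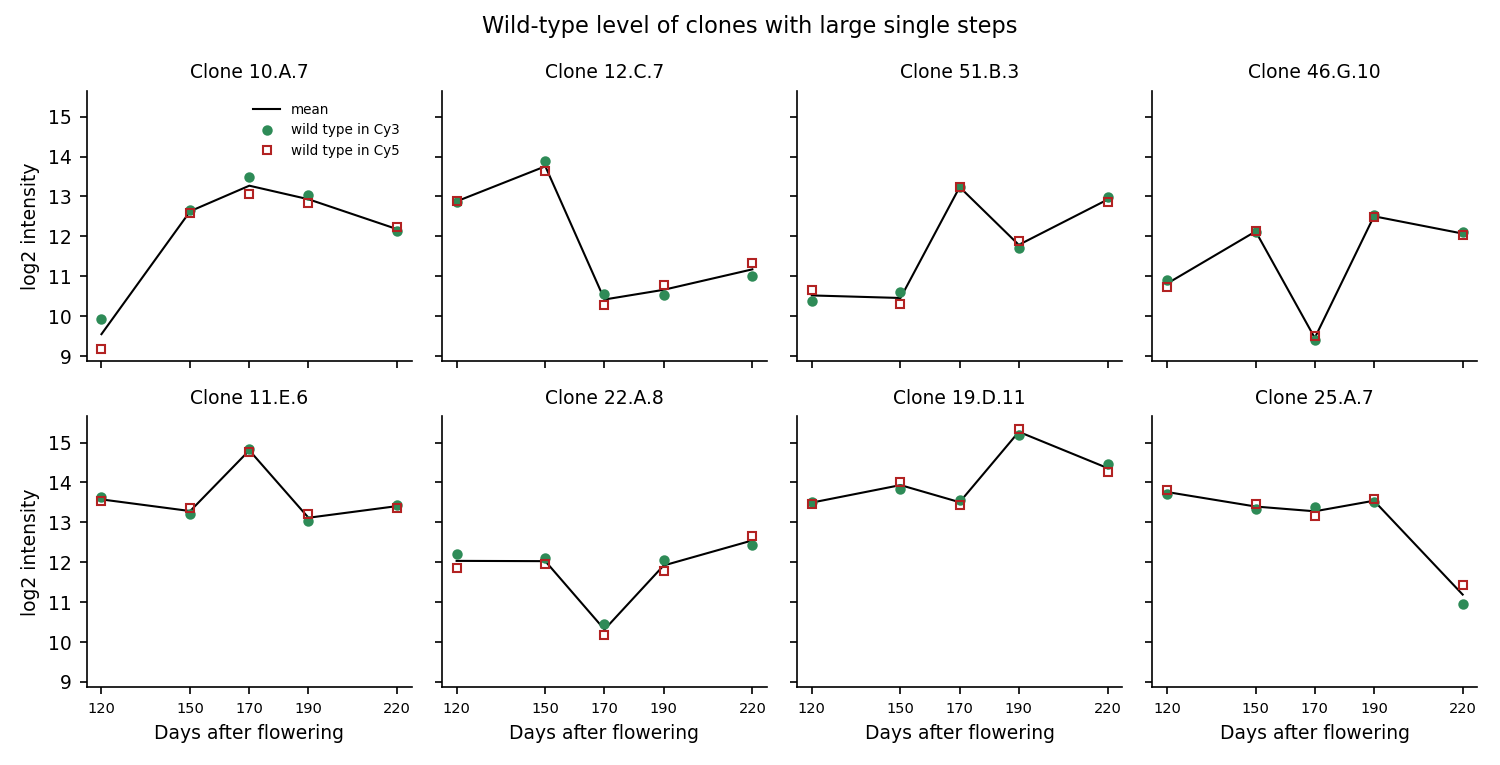
Wild-type log2 intensity (vertical axis) against days after flowering (horizontal axis) for 8 clones named for a large step or for a single high or low day. Filled points are Cy3 arrays, open squares Cy5 arrays, and the line joins their mean. Clone 10.A.7 was low at 120 days only, 46.G.10 and 22.A.8 dipped at 170 days, 11.E.6 and 19.D.11 peaked at 170 and 190 days, and 25.A.7 was low at 220 days only.

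The third question was at which day a clone reached its highest and its lowest level. Among the 5844 clones, 3017 had a range of at least 2-fold and 705 of at least 4-fold over the day means. Of the 3017, the highest day was the same in both orientations for 1998 and the lowest for 2134. The highest level fell most often on 170 days (598 clones), 120 days (520) and 220 days (519), and less often on 190 days (233) and 150 days (128). The lowest level fell on 220 days in 655 clones, on 120 days in 584, on 170 days in 508, on 190 days in 252 and on 150 days in 135. The first, middle and last collections thus held most extremes. Day 150, with the lowest numbers, also had the largest spread between orientations (SD 0.44), and the part of that spread in the count was not tested. Without 170 days, an alternative added after the data were seen, the highest day was 120 in 590 clones, 150 in 137, 190 in 419 and 220 in 534, and the lowest was 120 in 606, 150 in 235, 190 in 299 and 220 in 636. With levels set against the control spots 3530 clones were highest at 120 days, 1 at 150, 975 at 170, 137 at 190 and 0 at 220 days.

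Both the highest and the lowest day were the same in both orientations for 1401 clones, and a few combinations held most of them. The most frequent was lowest at 120 and highest at 170 days, with 265 clones. Relative to each clone's own mean, the median level of this group was -0.98 at 120 days, -0.03 at 150, 0.80 at 170, 0.35 at 190 and -0.09 at 220 days. It was low early, high at 170 days and back near its mean by the end. Next came highest at 120 and lowest at 220 days, with 255 clones and medians of 0.74, 0.25, 0.12, 0.03 and -1.12. In that group most of the decline lay before 150 and after 190 days, the sequence already seen in clone 42.G.2. Another 167 clones were lowest at 170 and highest at 220 days, 106 were highest at 170 and lowest at 220 days, and 90 were lowest at 170 and highest at 190 days. Without 170 days 1250 clones had an agreed highest and lowest day. The most frequent combinations were then highest at 120 and lowest at 220 days, with 333 clones, lowest at 120 and highest at 190 days, with 248, and lowest at 120 and highest at 220 days, with 171. The groups are defined by these extremes, so their medians describe them and test nothing.

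The combinations were unevenly spread over the plates. Of the 265 clones low at 120 and high at 170 days, 199 came from plates 1 to 29, and of the 255 clones high at 120 and low at 220 days, 195 came from plates 30 to 61. Without 170 days 262 of the 333 clones high at 120 and low at 220 days came from plates 30 to 61. Plates 1 to 29 also held 39 of the 46 clones highest at 220 and lowest at 190 days, and plates 30 to 61 held 25 of the 29 highest at 190 and lowest at 220 days. The median level of plates 1 to 29 minus that of plates 30 to 61, both centred on the clones' own means over the days, was -0.24 at 120 days, 0.10 at 150, 0.01 at 170, -0.05 at 190 and 0.09 at 220 days. At 120 days the difference was -0.31 in Cy3 and -0.16 in Cy5. The shift of whole plates was thus largest at 120 days. Its part in these counts was not tested. No label states which clone library each plate holds.

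**Figure D4:**
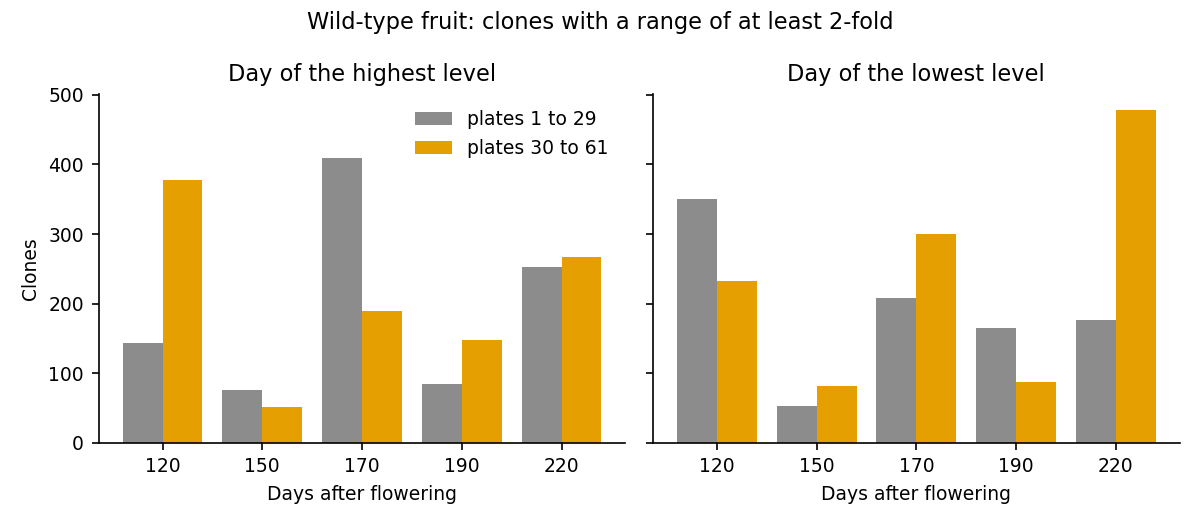
Number of clones (vertical axis) by the day after flowering (horizontal axis) of their highest level (left) and lowest level (right), among clones with a range of at least 2-fold and the same day in both orientations, split by plate. In plates 1 to 29 the highest day was most often 170 days (409 clones), in plates 30 to 61 it was 120 days (377 clones), and the lowest day of plates 30 to 61 was most often 220 days (478 clones).

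Some clones were set apart at a single day. At 120 days clones 25.C.3 and 12.C.3 were low: 25.C.3 stood at 9.38 in Cy3 and 9.54 in Cy5 and no lower than 12.02 on any later array, and 12.C.3 at 8.85 and 8.96 and no lower than 11.45. Clones 60.B.5 and 54.G.8 were high at 120 days, at means of 11.99 and 13.58 against at most 10.59 and 12.13 later. At 150 days the gaps were smaller. Clone 42.D.4 stood at 11.98 and 12.62 at 150 days and at a mean of at most 11.34 on any other day, and 54.G.4 stood at 10.81 and 10.49 against a mean of at least 11.54. Clone 22.B.3 was low at 150 days too, but its orientations stood at 11.07 and 9.24 there.

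At 170 days clone 11.E.6 stood at 14.84 in Cy3 and 14.77 in Cy5, and on the other days its mean lay between 13.12 and 13.58. Clone 12.B.11 stood at 14.16 and 13.85, against means of 12.28 to 12.53. Clone 22.A.8 was the reverse, at 10.46 and 10.17 at 170 days against means of 11.92 to 12.55. Clone 49.C.3 stood at 9.78 and 9.58, against 11.12 to 11.63. The means of these 4 clones lay close together over the other 4 days, and most of their range comes from the collection of 170 days. In the mutant at 150, 170 and 190 days 11.E.6 stood at 14.17, 12.33 and 14.21, and 12.B.11 at 12.79, 11.96 and 13.72. Clone 22.A.8 stood there at 10.91, 12.85 and 10.88, and 49.C.3 at 10.87, 10.96 and 9.62. The first 3 thus went opposite ways in the genotypes at 170 days, and an exchange of the genotypes at that day was not tested.

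At 190 days clone 19.D.11 stood at 15.19 in Cy3 and 15.35 in Cy5, above a mean of 14.36 at 220 days and of at most 13.93 before. Clone 53.H.7 stood at 12.62 and 12.37, with its next highest mean at 11.37. Clone 2.B.12 was low at 190 days, at 10.63 and 10.40, after a decline from a mean of 13.65 at 120 days, and stood at 11.94 at 220 days. At 220 days clones 31.H.3 and 40.E.6 were high, at means of 12.57 and 11.41 against at most 11.36 and 10.37 before. Clone 25.A.7 was low, at 10.94 and 11.44, after means of 13.28 to 13.76 on all 4 earlier days. It shows the late drop without the early one.

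The steadiest clones among the brightest 10% were 30.C.8 and 35.G.11, with ranges of 0.14 and 0.15 over the day means. Their levels lay between 15.36 and 15.64 and between 15.10 and 15.60 on single arrays. Before normalization the intensity of 30.C.8 ran from 27085 to 78119, and that of 35.G.11 from 28633 to 69782. In both the highest of these was on the Cy3 array of 120 days and the lowest at 220 days, so their steadiness is relative to the other clones of each array.

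Over all clones, the relative levels of neighbouring days were more alike than those of most other pairs, except at 150 and 170 days. After each clone's mean was taken off, which by itself pulls such correlations below 0, the level at 120 days correlated across clones with that at 150 days at r = 0.15 (rho 0.08). With 170, 190 and 220 days it correlated at r = -0.44, -0.38 and -0.43. Between 170 and 190 days r was 0.01, and between 190 and 220 days -0.15. Between 150 and 170 days r was -0.32, and the remaining pairs lay between -0.36 and -0.26. By this measure 120 and 150 days were the most alike, whereas 150 and 190 days had the fewest clones 2-fold apart. Uncentred levels correlated at 0.92 between 120 and 150 days, 0.90 between 150 and 170, 0.92 between 170 and 190 and 0.90 between 190 and 220 days, and at 0.93 between 150 and 190 days. Clones of one array share its labelling and hybridisation and are not independent, and all r are descriptions.

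The last comparison set wild-type development beside that of the mutant. From 120 to 150 days no clone went 2-fold one way in the wild type and 2-fold the other way in the mutant. Of the 203 clones higher at 150 than at 120 days in the wild type, 121 were 2-fold higher in the mutant as well and 0 were 2-fold lower. The other 82 had no 2-fold step there. Of the 131 lower clones 93 were lower in the mutant too, and 38 had no 2-fold step. Over all 5844 clones 640 were 2-fold higher and 311 lower in the mutant, against 203 and 131 in the wild type. Among the 131 as well, 0 clones went the other way in the mutant. Clone 10.A.7 was among the 121, with a difference of 3.43 in the mutant against 3.08 in the wild type.

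From 150 to 170 days fewer 2-fold steps were shared. Of the 307 clones higher at 170 days in the wild type, 4 were higher in the mutant, out of 449, and 179 were 2-fold lower there, out of 709. Of the 148 clones lower in the wild type, 23 were lower in the mutant, out of 709, and 21 higher, out of 449. The opposition lay mostly with the clones that were higher in the wild type. Clone 12.C.7 differed by -3.34 in the wild type and by 2.36 in the mutant, and 61.A.10 by 2.87 and -1.69. From 170 to 190 days 1 of 234 higher clones was higher in the mutant, out of 738, and 75 were lower, out of 524. Of 234 lower clones 24 were lower in the mutant, out of 524, and 109 higher, out of 738. Both steps use the same extracts of 170 days and are not independent. Whether the genotypes were exchanged at that collection was not tested, so these counts cannot show how their development differed. From 190 to 220 days 24 of 239 higher clones were also higher in the mutant (of 81) and 1 was lower (of 89). Of 379 lower clones 3 were also lower (of 89) and 4 higher (of 81). Between these days few clones of the mutant moved 2-fold at all. The mutant totals are counts over all 5844 clones, and no overlap was tested against its total.

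Correlations of the relative levels gave the same contrast by day. The wild type at 120 days correlated with the mutant at 120 days at r = 0.66 and at 170 days at r = 0.59, and with the mutant at 150, 190 and 220 days at -0.56, -0.57 and -0.45. The wild type at 170 days gave -0.63 with the mutant at 120 days, 0.33 at 150, -0.49 at 170, 0.64 at 190 and 0.46 at 220 days. The wild-type collections of 120 and 170 days thus had opposite partners among the mutant's. At 190 and 220 days r of the same day was 0.21 and 0.16. Genotypes of the same day shared arrays and spots. These r are descriptions across clones.

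**Figure D5:**
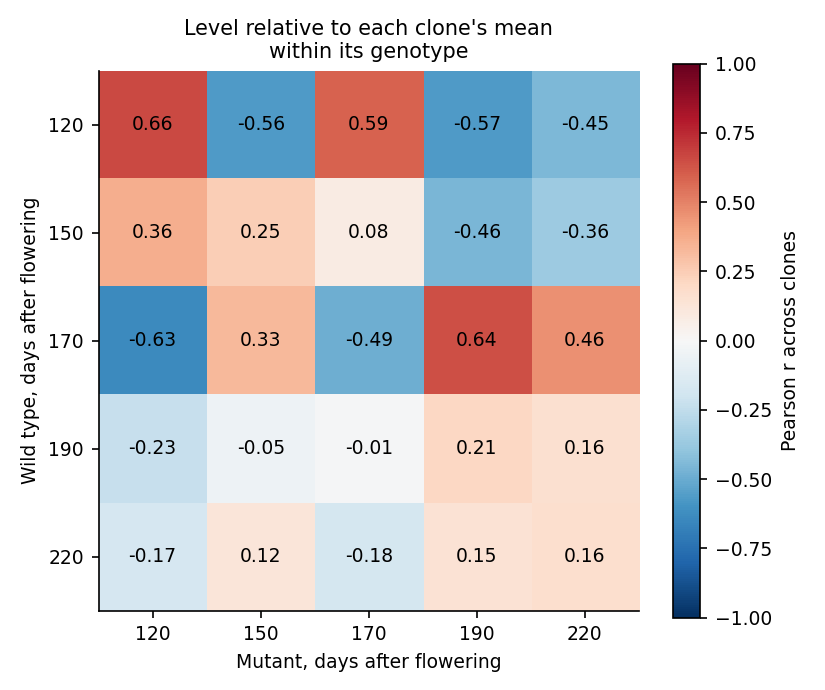
Pearson r across clones between wild-type levels (rows, days after flowering) and mutant levels (columns, days after flowering), each relative to the clone's mean within its genotype. Colour runs from -1 (blue) to 1 (red). The wild type at 120 days matched the mutant at 120 (0.66) and 170 days (0.59), and the wild type at 170 days matched the mutant at 190 days (0.64).

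The genotypes' trends were compared directly by the slope of the difference, wild type minus mutant, over the 5 days. Here 0 of 5843 clones (0% called) passed limma's test after adjustment. Before adjustment 364 clones had p below 0.05, 114 with the higher slope in the wild type and 250 with the lower. The larger side turned when channels were scaled to 1 median, with 368 higher and 198 lower. The smallest adjusted p was 0.592. The unadjusted count depended on single collections: it was 741 with 170 days left out, 237 with 150, 113 with 120 and 46 with 220 days left out, and 0 clones passed after adjustment in each case. The ordered clone 42.G.2 had a slope of -2.84 in the wild type and of 0.03 in the mutant, a difference of -2.96 after normalization over all 20 channels, with an adjusted p of 0.592 in limma. Clones 48.E.12 and 40.G.3 had mutant slopes of -0.39 and 0.13 per 100 days, with adjusted p of 0.602 and 0.592 for the difference. The levels of these clones in the mutant were not ordered in time: 42.G.2 stood there at 11.32, 9.88, 11.07, 10.70 and 11.03.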

How the data were processed

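Wild-type RNA of 5 collections was read from 10 arrays. Per the file headers, the authors deposited an intensity for every spot and dye. Values below 0 occur and blank spots lie near 0, so background was taken off before deposit. Neither the scanner nor the software is named in the labels or headers. Labelling used Klenow enzyme after amplification of 5 µg of total RNA, per the labels' protocols. The deposited ratio tables hold no wild-type level and were not used.

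Intensities at or below 0 (4 to 15 clone spots per array) were left out. Log2 intensities of the clone spots were quantile-normalized over the 10 wild-type channels (mutant channels likewise; for the slope difference, over all 20), and the 3 spots of a clone averaged. The dye-swapped arrays of a day are technical and were averaged, so p-values measure the spread between 5 collections. Slopes were fitted with limma 3.58.1 (R 4.3.3), lmFit and eBayes, two-sided, Benjamini-Hochberg over all clones, and the script was tested on simulated data. Replicate numbers mark only the dye orientation: their deviations correlated between days at -0.30 to 0.21, above 0.1 in 2 of 10 pairs.

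The clones named are those past the slope test, else those ordered in time in both orientations (at most 10 each way), the 2 largest steps each way, the 2 most set apart each way per day, and the 2 steadiest bright ones, above background on both arrays at the days compared. The wild-type channels, these rules and the plate boundary were chosen with earlier results of these data known. Alternatives changed the scaling, offset, filter, spots, arrays, days, fold and fit.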

Additional observations from a re-analysis of the deposited data

Results flagged for a closer look

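The limit set by blank and solvent spots was 822 in intensity on the Cy3 array of 220 days, far above the other 9 wild-type channels, and the 4891 clones above it there were far fewer than elsewhere. The correlation of the dye orientations after centring was 0.42 at 150 days, below that of the other 4 days. Plate 21 stood at -1.06 relative to the other plates on the Cy5 array of 150 days, far from its value on the other 9 arrays. These 4 values stood apart among 13 sets checked. Chance marks about 1 in 20 independent sets, but these are not independent: the limit and the number of clones above it come from the same array, and plate 21 enters the correlation at 150 days.

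In 5 of the clones named for a step both arrays of the mutant had the opposite sign to both arrays of the wild type, a difference that was not tested. The mutant step from 150 to 170 days was -1.69 in clone 61.A.10, -0.87 in clone 51.B.3 and 2.36 in clone 12.C.7, against 2.87, 2.78 and -3.34 in the wild type. The mutant step of clone 20.H.6 from 170 to 190 days was 1.69, against -2.07. That of clone 53.F.11 from 190 to 220 days was 0.19, against -2.22. It was 0.30 and 0.085 on the single arrays, so in 53.F.11 the mutant hardly moved.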

How the results depend on the processing

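The slope test called 0 clones by limma as reported (831 at an unadjusted p under 0.05). It called 250 with levels set against control spots (1 rising, 249 falling), 30 with spots lacking the authors' class left out (1 and 29), 203 without 170 days, 2 without 220 days, 50 with the replicate block (dye orientation, day as a random block; 0 rising) and 61 with no replicate block (3 rising). The other 14 alternatives called 0, and the slope difference called 0 in each of its 10. At an unadjusted p the control spots gave 1298 clones. The slopes of 38.A.8 (-0.0969) and 39.G.1 (-0.0371) reversed there.

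For the 2-fold counts, in the order 120 to 150, 120 to 170, 120 to 190, 120 to 220, 150 to 170, 150 to 190, 150 to 220, 170 to 190, 170 to 220 and 190 to 220 days, a 4-fold limit gave 23, 227, 92, 249, 76, 16, 107, 19, 71 and 17. At 4-fold the larger side turned for 120 to 220 days (129 higher, 120 lower), 150 to 190 days (2 and 14) and 150 to 220 days (87 and 20), and 170 to 190 days gave 18 and 1. Control spots gave 2906, 1511, 4109, 1337, 642, 1022, 3024 and 2054, without 120 to 170 and 170 to 190 days, which stayed within 1.5 times. The mean of both orientations gave 597 (120 to 150), 787 (150 to 170), 565 (150 to 190), 998 (150 to 220) and 711 (170 to 190). With 1 orientation alone (without replicate 1 or 2) the counts ran from 762 to 817, 1216 to 1514, 1129 to 1151, 1418 to 1619, 1015 to 1031, 696 to 755, 1052 to 1323, 741 to 809, 1422 to 1559 and 937 to 1090.

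The number of clones highest at 120, 150, 170, 190 and 220 days was 3530, 1, 975, 137 and 0 with control spots, and 419 at 190 days without 170 days. Without replicate 1 or 2 it was 783 to 928 at 120, 403 to 454 at 150, 415 to 434 at 190 and 785 to 910 at 220 days. Alternatives for the correlation of profiles were chosen after seeing the data. For clones above background on all 10 arrays r was -0.49 (120 and 170 days), -0.20 (150 and 190), -0.43 (150 and 220), -0.0435 (170 and 190) and -0.21 (170 and 220). Without replicate 1 or 2 r was 0.0724 to 0.0849 (120 and 150), -0.47 to -0.38 (120 and 170), -0.41 to -0.27 (150 and 170) and -0.38 to -0.28 (150 and 220). Leaving out plate 21, also added later, kept every count within 1.5 times. One extract per day and the bright background at 220 days limit all values, and the cause of these shifts was not tested.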
